A study of Mus musculus with 6 samples.

Results

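Kruppel-like factors are transcription factors that bind CACCC boxes and GC-rich sites in promoters through zinc fingers at the C-terminal end of the protein. Several members are known regulators of blood cells: Klf2 keeps lymphocytes quiescent and controls their traffic, and Klf4 takes part in monocyte differentiation. The genes described here are Klf2, Klf3, Klf4, Klf6, Klf7, Klf10 and Klf13, taken by symbol from the gene tables, 7 of 16135 genes listed. They were measured by RNA sequencing of common dendritic cell progenitors (CDPs), the precursors in bone marrow from which dendritic cells arise.

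The progenitors came from wildtype C57BL/6 mice aged 6 to 8 weeks, with no treatment named. They were flow-sorted by CD115, the M-CSF receptor, and by Ly6C, a surface antigen of monocytes and their precursors. Each of 3 subsets had 2 libraries (replicates 1 and 2): CD115-Ly6C-, CD115+Ly6C- and, with both antigens, CD115+Ly6C+. Whether replicates stem from different mice or different sorting runs is not labelled, so p-values measure only the spread between these libraries, which may be technical.

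Expected counts summed to between 17961541 and 19450329 per library. The progenitor genes Flt3, Csf1r, Kit and Irf8 had reads in every library. Csf1r, which encodes CD115, stood at 213 and 259 CPM in the subset sorted as CD115- and at 413.6 to 553 CPM in the others. CPM here are counts relative to library size after TMM scaling. The summed level of 8 erythroid genes was 5.52 to 18.6 CPM and that of 6 megakaryocyte genes 1.1 to 10.1 CPM over the 6 libraries. The sum of 8 T cell genes was 160.1 and 161.7 CPM for CD115-Ly6C-, 33.3 and 36 CPM for CD115+Ly6C- and 9.09 and 6.29 CPM for CD115+Ly6C+. Most of it was the kinase gene Lck (141.6 and 143.4 CPM in CD115-Ly6C-). The CD3 genes Cd3d, Cd3e and Cd3g were at or below 0.669 CPM in every library. Of 8 B cell genes, summing to 92.8 to 109.7 CPM, Cd79b made up most, and Pax5 was at 0 in all libraries except CD115-Ly6C- replicate 1 (0.101 CPM). Summed over 10 late neutrophil granule genes, the level was 4196 and 3915.7 CPM for CD115+Ly6C+, then 229.4 and 907.6 CPM for CD115+Ly6C- and 311.3 and 149.4 CPM for CD115-Ly6C-. In such bulk samples, fewer cells of a type and less RNA per cell cannot be told apart.

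All 7 members share the DNA-binding domain that defines the family. In the GENCODE M21 reading frame of the annotated transcript of each, the pattern of paired cysteines and histidines of a zinc finger was found 3 times, and the stretch from the first to the last of these residues was 243 bases long in every member. The coding sequence of the last finger, 63 bases, is printed here because it shows how alike the members are, with the codons of its 2 cysteines and 2 histidines in capitals.
Klf2: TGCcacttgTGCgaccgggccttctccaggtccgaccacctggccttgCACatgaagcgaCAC
Klf4: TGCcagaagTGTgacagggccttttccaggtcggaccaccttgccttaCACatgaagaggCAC
Klf6: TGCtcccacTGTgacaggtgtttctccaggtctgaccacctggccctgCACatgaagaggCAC
Klf7: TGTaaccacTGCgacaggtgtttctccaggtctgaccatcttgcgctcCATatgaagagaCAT
Klf3: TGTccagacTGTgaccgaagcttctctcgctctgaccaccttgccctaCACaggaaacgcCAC
Klf10: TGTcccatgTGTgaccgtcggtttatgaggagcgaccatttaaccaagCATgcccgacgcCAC
Klf13: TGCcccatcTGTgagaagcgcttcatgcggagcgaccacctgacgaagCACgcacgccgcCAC
Over the whole stretch of 243 bases, the most alike members were Klf6 and Klf7, with 81.1% identical bases, and Klf2 and Klf4, with 78.2%. Klf10 and Klf13, which both bind the Sin3 corepressor, shared 69.1%. Identity between these last members and the other five was 59.3% to 64.6%. Klf3 was closest to Klf6, at 72.8%. The last finger of Klf2 lies in exon 3 of 3 (chr8:72320851-72320913, plus strand, GRCm38), that of Klf4 in exon 5 of 5 (chr4:55528131-55528193, minus strand) and that of Klf3 in exon 6 of 6 (chr5:64829084-64829146, plus strand). In Klf10 it lies in exon 4 of 4 (chr15:38295995-38296057, minus strand), in Klf13 in exon 2 of 2 (chr7:63891628-63891690, minus strand), and in Klf6 and Klf7 it is split between exons.

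Per length, 3 members carried most Klf transcripts. In FPKM, fragments scaled to transcript length and library size, Klf6, Klf10 and Klf13 together held 69.6% to 82.5% of the summed level of the 16 Klf genes with reads in at least 1 library. Klf13, known as an activator of the chemokine gene Ccl5 in T cells, had mean FPKM of 37.5 ± 8.46 for CD115+Ly6C-, 31.4 ± 6.02 for CD115-Ly6C- and 23.9 ± 2.20 for CD115+Ly6C+ (SD, n = 2). Klf6, a factor induced by injury and stress in many cells, was at 30.0 ± 9.36, 33.5 ± 19.4 and 31.4 ± 10.3 FPKM in the same order of subsets. Klf10, an early gene of TGF-beta signaling, was at 26.5 ± 1.65, 29.1 ± 1.41 and 25.4 ± 6.01 FPKM. Within each subset the libraries of these 3 genes overlapped in FPKM, except that both CD115+Ly6C- libraries had more Klf13 (43.53 and 31.56) than Klf10 (27.65 and 25.31). Klf2 and Klf4 came next with 2.63 to 11.29 and 1.17 to 11.27 FPKM over the libraries. Klf3 stood at 0.79 to 5.74 and Klf7 at 1.44 to 3 FPKM, both on gene models shorter than those of GENCODE M21. Of the other Klf genes, Klf11 (4.14 to 6.96 FPKM) and Klf16 (2.4 to 4.52 FPKM) reached the range of Klf2 and Klf4, Klf8 had 0.72 to 1.5 FPKM, and Klf1, Klf5, Klf9, Klf12, Klf14 and Klf15 stayed at or below 0.65 FPKM in every library.

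**Figure D1:**
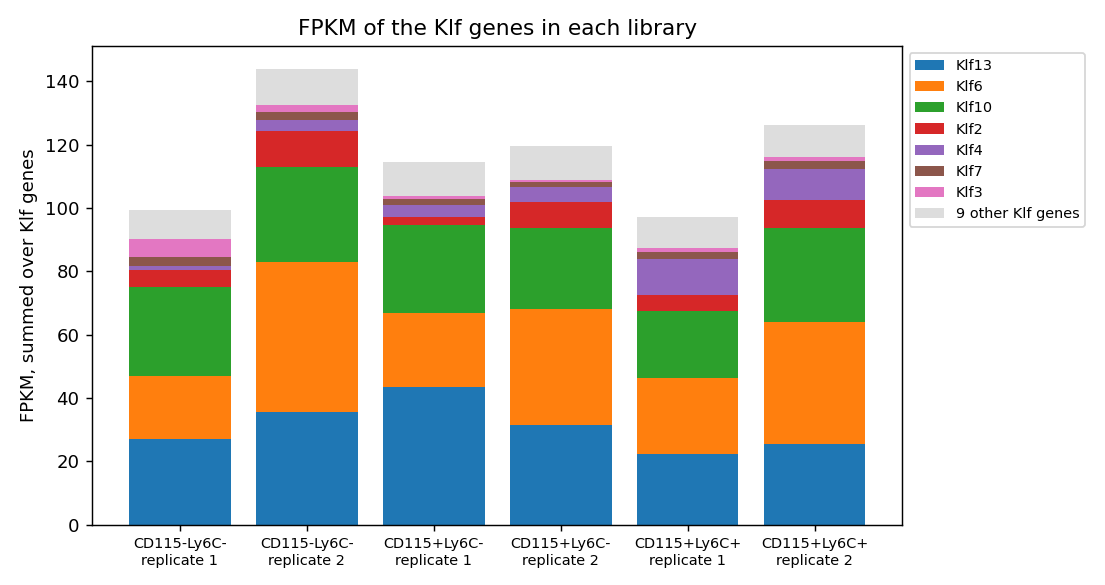
Stacked bars give the FPKM of each Klf gene (vertical axis, summed over 16 genes) in each of the 6 libraries, grouped by subset. Klf13, Klf6 and Klf10 form 69.6% to 82.5% of each bar, and the Klf4 segment is widest in the CD115+Ly6C+ libraries.

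All 7 members passed the filter on low counts and were tested in 3 pairwise comparisons with edgeR's quasi-likelihood test on rounded expected counts, adjusted by Benjamini-Hochberg over 12127 genes with a threshold of 0.05. Between CD115+Ly6C+ and CD115+Ly6C-, edgeR called 0 of 7 members, against 9.6% of all genes tested (5.26% higher and 4.34% lower). At an unadjusted p under 0.05 there were 1 higher (Klf4) and 1 lower (Klf13), and DESeq2 called the same counts. Between CD115-Ly6C- and CD115+Ly6C-, 1 member was higher (Klf3, against 8.43% of all genes) and 0 were lower (against 6.78%). For the lower direction the count was 0 at an unadjusted p under 0.05 and 0 with DESeq2. Between CD115-Ly6C- and CD115+Ly6C+, where edgeR called 39.3% of all genes, 1 of 7 was higher (Klf3, against 20.1%) and 1 lower (Klf4, against 19.2%). The members' median log2 fold changes in the 3 comparisons were 0.43, 0.05 and 0.00, beside -0.01, 0.02 and 0.03 over all genes. The 3 comparisons share libraries pair by pair.

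**Figure D2:**
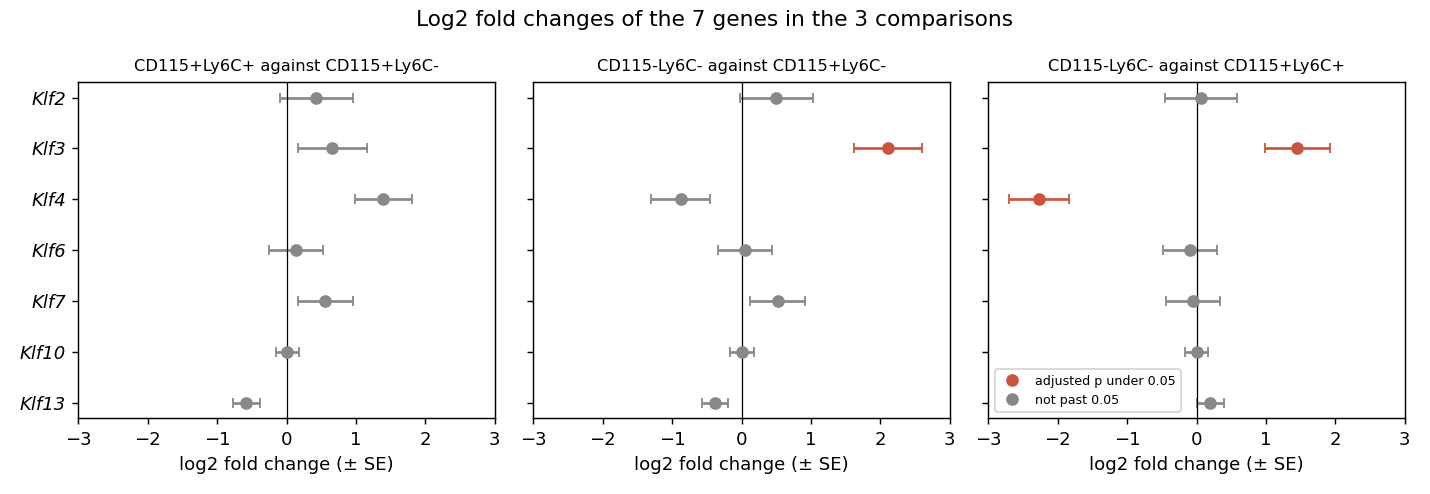
Points give the log2 fold change (horizontal axis) of each of the 7 genes in the 3 comparisons, first subset minus second, with bars of 1 SE from edgeR. Red points, adjusted p under 0.05, are Klf3 in the middle and right panels and Klf4 in the right panel.

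Klf4 (Entrez gene 16600, chromosome 4, 55527137 to 55532475 of GRCm38) had its highest level in CD115+Ly6C+, with a call against CD115-Ly6C-. It stood at 34.4 and 30.3 CPM in the 2 libraries of CD115+Ly6C+, 10.7 and 14.0 CPM were read for CD115+Ly6C-, and 3.22 and 10.2 CPM for CD115-Ly6C-. Every library of a subset lay above every library of the next in that order, with a narrow gap between the lower pair. Taking CD115-Ly6C- minus CD115+Ly6C+, the log2 fold change was -2.27 (SE 0.43, edgeR adjusted p = 0.00383), a 4.81-fold difference. That call was kept under all 15 alternative settings, with adjusted p from 7.76e-08 to 0.0167 and log2 fold changes of -3.33 to -1.66 when any 1 library was left out. CD115+Ly6C+ was above CD115+Ly6C- by 1.39 (SE 0.41, 95% interval 0.46 to 2.32), and edgeR's adjusted p of 0.0669 did not pass. It passed with DESeq2 (0.00465), with no filter (0.0017), with only those 2 subsets in the fit (0.00256) and without CD115-Ly6C- replicate 1 or replicate 2 (0.00286 and 0.00391), over a range of 0.0017 to 0.303 in all settings. CD115-Ly6C- against CD115+Ly6C- gave -0.88 (SE 0.42, edgeR adjusted p = 0.192). Here the 2 libraries of CD115-Ly6C- differed 3.17-fold in CPM, and without replicate 2 the log2 fold change was -1.94 (0.00532, in a range of 0.00532 to 0.603 over all settings).

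Between subsets, Klf4 ran alongside genes of monocytes and granulocytes. The summed level of 9 monocyte genes was 5653.4 and 6233.7 CPM in CD115+Ly6C+ libraries, 2316.6 and 2271.2 CPM for CD115+Ly6C-, and 510 and 763.8 CPM for CD115-Ly6C-. Pearson's r between log2 Klf4 and the log2 of this sum was 0.93 over the 6 libraries, which share their subset structure, 0.81 with the sum of 5 early granule genes and 0.79 with the late neutrophil sum. The early granule sum was 5270.8 and 6060.3 CPM in CD115+Ly6C+ libraries, 5478.9 and 4603.1 CPM for CD115+Ly6C-, and 2790.1 and 3081.4 CPM for CD115-Ly6C-. Most of this sum was Mpo (2405.6 to 4646.4 CPM). Mpo was not called between CD115+Ly6C+ and CD115+Ly6C-, at 3858.7 against 4164.1 CPM (edgeR adjusted p = 0.644). Within subsets the lists did not all move with Klf4. In CD115-Ly6C- replicate 2, which had more Klf4, the monocyte and early granule sums were higher. The late neutrophil sum was lower there (311.3 and 149.4 CPM in replicates 1 and 2). Within each other subset the late neutrophil sum moved with Klf4, and the monocyte and early granule sums against it. In CD115+Ly6C+ against CD115+Ly6C-, 7 of 8 tested monocyte genes were higher, as were 4 of 5 early granule and 10 of 10 late neutrophil genes (5.26% of all genes). In CD115-Ly6C- against CD115+Ly6C+, 8 of 8, 5 of 5 and 10 of 10 were lower (19.2% of all genes). One of these genes, Ly6c2, encodes the sorted antigen. The sum of 7 macrophage genes was 75.5 and 94.2 CPM for CD115+Ly6C+, 74.9 and 53.3 CPM for CD115+Ly6C-, and 41 and 51.7 CPM for CD115-Ly6C-, and most of it was Cd68 (38.7 to 78.1 CPM). Adgre1, which encodes F4/80, had means of 10.3, 4.51 and 1.25 CPM in the same order of subsets and was called in all 3 comparisons (edgeR adjusted p = 0.0375, 0.00804 and 2.34e-04), while the complement genes C1qa, C1qb and C1qc were at or below 0.359 CPM in every library. The part of these transcripts in the Klf4 difference was not tested.

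The genes whose level over the 6 libraries was most like that of Klf4, of 7361 with a mean of at least 5 FPKM, were Impa1, BC030867 and Msra, each with Pearson's r of 0.993 on log2 CPM. Msra, a methionine sulfoxide reductase, stood at 93.8 and 103.6 CPM in CD115-Ly6C-, 106.9 and 109.7 CPM in CD115+Ly6C-, and 123.5 and 121.4 CPM in CD115+Ly6C+. Its order of libraries is that of Klf4 over a much narrower range.

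The promoter of Klf4 is printed for its GC boxes, sites that Sp and Kruppel-like factors can bind. The bases before the RefSeq start site of GRCm38.p6 (chr4:55532476-55532725, minus strand, outside every GENCODE exon) are given with each GGGCGG, on either strand, in capitals.
Klf4: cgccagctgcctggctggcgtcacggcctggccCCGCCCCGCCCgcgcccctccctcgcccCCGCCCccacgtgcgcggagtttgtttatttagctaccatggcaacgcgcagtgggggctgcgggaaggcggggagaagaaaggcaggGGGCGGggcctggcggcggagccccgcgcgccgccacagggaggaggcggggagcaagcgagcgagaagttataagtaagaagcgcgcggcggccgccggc
GGGCGG occurred 4 times in the 300 bases around this start site, where 2 copies overlap by 1 base, and CACCC did not occur in either strand. Of 32851 RefSeq promoter windows of that length, 35.7% held GGGCGG and 57.5% held CACCC.

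Klf3 (Entrez gene 16599, chromosome 5, 64803521 to 64832901), a repressor that recruits CtBP corepressors, was highest in CD115-Ly6C-. It stood at 11.3 and 4.48 CPM there, at 2.29 and 3.47 CPM in CD115+Ly6C+ and at 1.94 and 1.70 CPM in CD115+Ly6C-. The libraries of the 3 subsets did not overlap, but those of CD115-Ly6C- lay 2.5-fold apart, on 224 and 90 counts. The excess of CD115-Ly6C- over CD115+Ly6C- was 2.11 on the log2 scale (SE 0.49, edgeR adjusted p = 0.0246), a 4.32-fold difference. Without CD115-Ly6C- replicate 1 it was 1.30 (0.217), and the call was also lost without CD115+Ly6C- replicate 1 (2.21, 0.127) or replicate 2 (2.01, 0.104). Over CD115+Ly6C+ the excess was 1.45 (SE 0.47, edgeR adjusted p = 0.0381), and 0.65 (0.397) without CD115-Ly6C- replicate 1. Leaving out any of the other libraries except CD115-Ly6C- replicate 2 also ended that call, with adjusted p from 0.0544 to 0.166, and so did fitting only the 2 subsets compared (0.0534). Over all settings the adjusted p ran from 6.68e-04 to 0.217 in the first of these comparisons and from 0.0066 to 0.397 in the other. No difference between CD115+Ly6C+ and CD115+Ly6C- was detected (0.66, SE 0.50, edgeR adjusted p = 0.422). Klf3 overlaps the gene models Gm38457 and Gm31684, and no label says whether counting used strand, so reads of overlapping genes cannot be told apart. The T cell sum given above, Cd79a and Ebf1 were also highest in CD115-Ly6C-, while Cd79b, most of the B cell sum, was lowest there. The part of these genes in the Klf3 difference was not tested.

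Man1a, a Golgi mannosidase, had the level most like that of Klf3 (r = 0.966 over 6 libraries, 7362 genes compared), at 58.8 and 37.3 CPM in CD115-Ly6C-, 28.9 and 40.5 CPM in CD115+Ly6C+ and 27.4 and 22.5 CPM in CD115+Ly6C-. Like Klf3, it was highest in CD115-Ly6C- replicate 1. Rad51d and Zfp52 followed with r of 0.954 and 0.953. Of the 10 corepressor and coactivator genes of the family, 9 were tested. In CD115-Ly6C- against CD115+Ly6C+, 2 were higher and 2 lower, where 39.3% of all genes were called, so the count of this list lay near that share. The higher ones were Ep300, an acetyltransferase, at 26.7 against 13.5 CPM, and Sin3a, a scaffold of histone deacetylase complexes, at 103.6 against 72.9 CPM. The lower ones were Ctbp2, a CtBP partner of Klf3, at 8.79 against 16.3 CPM, and Sin3b at 106.2 against 145 CPM (edgeR adjusted p from 0.00883 to 0.0181). Between CD115+Ly6C+ and CD115+Ly6C-, where 9.6% of all genes were called, Hdac2, a histone deacetylase, was the 1 gene of this list called. It stood at 128 against 49.2 CPM (edgeR adjusted p = 0.0411). Between CD115-Ly6C- and CD115+Ly6C-, edgeR called 0 of 9, beside 15.2% of all genes.

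Klf13 (Entrez gene 50794, chromosome 7, 63886351 to 63938915) had its highest level in CD115+Ly6C-, with no call. It stood at 276 and 197.5 CPM in CD115+Ly6C-, 154.8 and 209.1 CPM in CD115-Ly6C-, and 145.7 and 170.1 CPM in CD115+Ly6C+. The libraries of CD115+Ly6C- lay above those of CD115+Ly6C+ and overlapped those of CD115-Ly6C-. CD115+Ly6C+ minus CD115+Ly6C- came to -0.58 on the log2 scale (SE 0.19, 95% interval -1.01 to -0.15, edgeR adjusted p = 0.089). DESeq2 (0.0214) and the fit with no filter (0.0108) called it, and over all settings the adjusted p ran from 0.0108 to 0.428. CD115-Ly6C- against CD115+Ly6C- gave -0.38 (SE 0.19, edgeR adjusted p = 0.207). Klf13 overlaps the protein-coding gene E030018B13Rik and the gene model Gm27252.

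Klf10 (Entrez gene 21847, chromosome 15, 38291464 to 38300711) was at nearly the same level in the 3 subsets. Its means were 77.2 ± 5.50 CPM in CD115+Ly6C-, 77.8 ± 19.7 CPM in CD115+Ly6C+ and 78.0 ± 5.21 CPM in CD115-Ly6C- (SD, n = 2). The libraries were 81.1 and 73.3 CPM, 63.8 and 91.7 CPM, and 74.3 and 81.7 CPM in that order, so all 3 subsets overlapped. Log2 fold changes were 0.00 to 0.01 (SE 0.17), and the 95% intervals reached from -0.39 to 0.40, so a change of more than that size in either direction lies outside them. The TGF-beta pathway that induces Klf10 did differ in some genes. Of 7 pathway genes, 3 were higher in CD115-Ly6C- than in either other subset and 0 lower, beside 8.43% and 20.1% of all genes higher. Tgfbr2, a receptor chain, was at 24.7 CPM there, against 12.3 CPM in CD115+Ly6C- and 7.03 CPM in CD115+Ly6C+. Smad3, a signal carrier, was at 34.4 against 16.1 and 10.5 CPM, and Smad7, an inhibitor that Klf10 is known to repress, at 6.55 against 2.56 and 1.35 CPM. Their edgeR adjusted p lay between 4.9e-04 and 0.0442. Between CD115+Ly6C+ and CD115+Ly6C-, 0 of the 7 were called by edgeR, beside 9.6% of all genes. Klf10 overlaps the gene model Gm35248.

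Klf7 (Entrez gene 93691, chromosome 1, 64029448 to 64122345), best known from neurons, was at 3.22 and 2.59 CPM in CD115-Ly6C-, 3.01 and 2.99 CPM in CD115+Ly6C+, and 2.36 and 1.70 CPM in CD115+Ly6C-. CD115+Ly6C- was lowest without overlap, on 45 and 32 counts, and no comparison passed (edgeR adjusted p = 0.393, 0.413 and 0.938). The log2 fold changes over CD115+Ly6C- were 0.56 (SE 0.40) for CD115+Ly6C+ and 0.52 (SE 0.40) for CD115-Ly6C-. Klf7 overlaps Mir6899, Gm13748 and Gm35880, so the limit on overlapping genes given for Klf3 applies here too. Counting members without overlap in the 3 comparisons gave 4, 3 and 2 of 7, where 57.2%, 61.9% and 72.6% of all genes showed none.

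**Figure D3:**
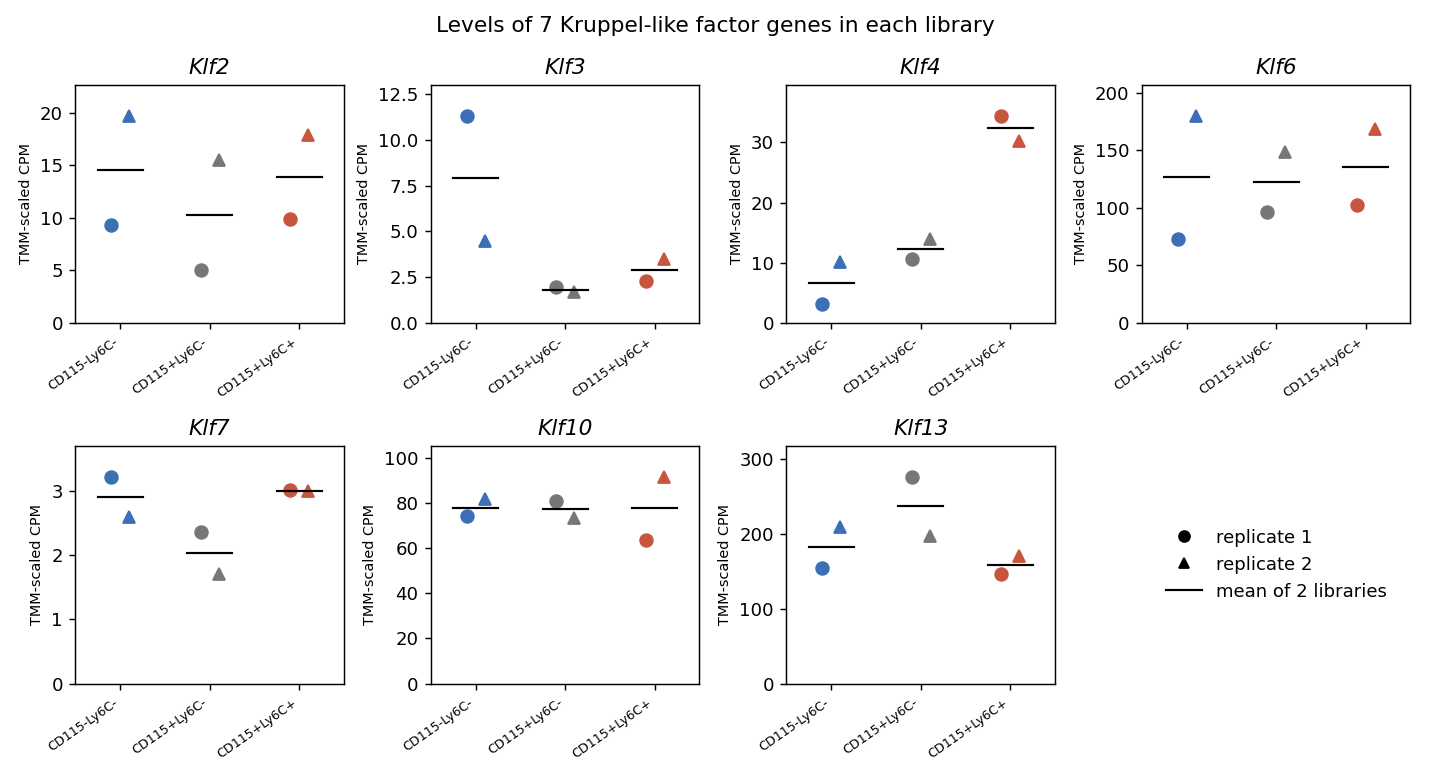
Each panel gives the TMM-scaled CPM (vertical axis, from 0) of 1 gene in the 6 libraries by subset, with circles for replicate 1, triangles for replicate 2 and a line at the mean of both. Klf4 is at 34.4 and 30.3 CPM in CD115+Ly6C+ and at 3.22 and 10.2 CPM in CD115-Ly6C-, while Klf2 and Klf6 part the replicates within each subset.

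Klf2 and Klf6 differed more between libraries of a subset than between subsets. Klf2 (Entrez gene 16598, chromosome 8, 72319062 to 72321654) stood at 5.04 and 15.5 CPM in replicates 1 and 2 of CD115+Ly6C-, at 9.87 and 17.9 CPM in CD115+Ly6C+ and at 9.36 and 19.7 CPM in CD115-Ly6C-. Klf6 (Entrez gene 23849, chromosome 13, 5861489 to 5870393) stood at 96.3 and 148.9 CPM, 102.5 and 168.1 CPM, and 73.3 and 179.8 CPM in the same libraries. In each subset the library with more Klf2 was also the one with more Klf6, by 1.81- to 3.08-fold for Klf2 and 1.55- to 2.45-fold for Klf6. They were the 2 of 7 members higher in replicate 2 of every subset, as were 12.8% of all genes tested. Klf7 was the 1 member lower in replicate 2 of every subset, though barely in CD115+Ly6C+ (3.01 and 2.99 CPM), and 12.1% of all genes were lower in all 3. Over the 6 libraries Pearson's r between Klf2 and Klf6 on log2 CPM was 0.80.

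Between subsets, Klf2 gave log2 fold changes of 0.43 (SE 0.53) for CD115+Ly6C+ and 0.50 (SE 0.53) for CD115-Ly6C- over CD115+Ly6C-, and 0.07 (SE 0.52) between these last (edgeR adjusted p = 0.632, 0.555 and 0.934). The 95% intervals reached from -1.11 to 1.71. Klf6 gave 0.14, 0.05 and -0.10 (SE 0.39 each, edgeR adjusted p = 0.847, 0.949 and 0.869), within -0.99 to 1.03. For both genes, leaving out 1 library turned the sign of every one of these differences, and for Klf6 between CD115-Ly6C- and CD115+Ly6C+ library totals did so too.

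Immediate early genes, which respond within minutes to stimulation or handling of cells, were high in the same libraries as Klf2 and Klf6. The summed level of 25 such genes in replicates 1 and 2 was 1945.2 and 3788.1 CPM in CD115+Ly6C-, 2091.9 and 3691.8 CPM in CD115+Ly6C+, and 3284.9 and 5931.3 CPM in CD115-Ly6C-. Within the subsets, in that order, 23, 21 and 22 of the 25 were higher in the library with more Klf2. In all 3 subsets 18 of 25 were, beside 12.8% of all genes tested that were higher in replicate 2 of every subset. Shares of all genes within a single subset were not counted. The 25 include the heat shock genes Hspa1a (344 to 627.6 CPM) and Hspa1b (7.6 to 11.9 CPM). Fos, an AP-1 subunit, stood at 488.6 and 1266.7 CPM, 539 and 1147.7 CPM, and 878.1 and 1887 CPM. Dusp1, a phosphatase of MAP kinases, stood at 121 and 320.4 CPM, 97.8 and 358.2 CPM, and 175.7 and 489.3 CPM. Fos and Dusp1 were singled out after their values were seen. Pearson's r of log2 Klf2 with the log2 of the sum was 0.86 over the 6 libraries, that of Klf6 was 0.67, and that of the other members lay between -0.21 and 0.42. The part of this early response in the levels of Klf2 and Klf6 was not tested.

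**Figure D4:**
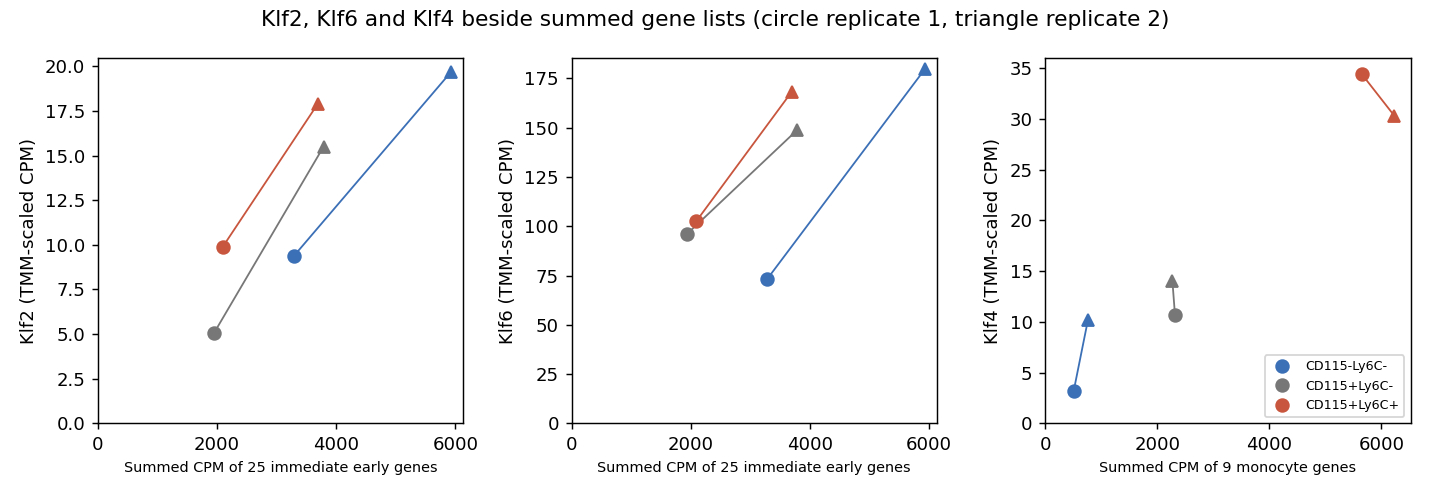
Klf2, Klf6 and Klf4 (vertical axes, TMM-scaled CPM) are plotted against the summed CPM of 25 immediate early genes or, for Klf4, 9 monocyte genes (horizontal axes) in the 6 libraries, with a line joining the replicates of a subset. For Klf2 and Klf6 the triangle lies above and to the right of the circle in each subset, and for Klf4 the subsets lie apart, with CD115+Ly6C+ at 34.4 and 30.3 CPM.

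Between subsets, edgeR called 3 of the 25 immediate early genes higher and 0 lower for CD115-Ly6C- against CD115+Ly6C-, where 8.43% of all genes were higher and 6.78% lower. Against CD115+Ly6C+ it called 7 higher and 1 lower, where 20.1% and 19.2% of all genes were called in each direction. The counts of higher genes lay somewhat above those shares, while 1 lower of 25 lay well below 19.2%. The list's median log2 fold changes were 0.81 and 0.88, beside 0.02 and 0.03 over all genes. By edgeR, 0 were called with CD115+Ly6C+ against CD115+Ly6C-, where the median was 0.12 and 9.6% of all genes were called. Dusp2, a further MAP kinase phosphatase, stood at 137.7 CPM in CD115-Ly6C- against 44 CPM in CD115+Ly6C- (edgeR adjusted p = 0.0096) and 35.5 CPM in CD115+Ly6C+ (0.00141), and Junb at 156.7 against 55.5 CPM in each (0.0302 and 0.0128). Socs3, a feedback inhibitor of cytokine signaling, stood at 7.02 against 1.69 and 1.86 CPM (0.0262 and 0.014), and Jun at 614.8 against 225.6 CPM in CD115+Ly6C+ (0.00666). Fosl2 was the 1 gene lower, at 4.08 against 9.6 CPM in CD115+Ly6C+ (0.00931). Klf2, with the largest r to this list, was not called in these comparisons.

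The promoters of Klf2 and Klf6 are printed because the levels of these genes ran together. The stretches end where GENCODE exons begin (chr8:72318812-72319032 and chr13:5861239-5861481, both plus strand, GRCm38.p6). Capitals mark GGGCGG and CCAAT on either strand and a loose pattern for the site of MEF2 factors (CTA and TAG with any 4 bases between). MEF2 factors drive Klf2 in endothelial and lymphoid cells.
Klf2: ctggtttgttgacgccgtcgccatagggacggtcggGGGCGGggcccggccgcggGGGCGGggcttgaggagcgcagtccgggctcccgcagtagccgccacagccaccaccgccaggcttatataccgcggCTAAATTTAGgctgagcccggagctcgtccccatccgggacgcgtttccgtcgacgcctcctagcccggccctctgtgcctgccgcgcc
Klf6: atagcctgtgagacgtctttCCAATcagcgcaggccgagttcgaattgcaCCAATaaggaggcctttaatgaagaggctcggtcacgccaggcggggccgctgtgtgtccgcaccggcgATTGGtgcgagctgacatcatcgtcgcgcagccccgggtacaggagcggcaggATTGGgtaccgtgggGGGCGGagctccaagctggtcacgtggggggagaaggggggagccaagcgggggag
The loose MEF2 pattern occurred 1 time in the Klf2 window, starting 118 bases before the RefSeq start site, and in 3.69% of all 32851 promoter windows. That share is for the loose pattern, and the share of windows with a stricter MEF2 site was not counted. The pattern did not occur in the windows of Klf3, Klf4, Klf6, Klf7 or Klf13. CCAAT occurred 4 times in the Klf6 window, 2 times in that of Klf13 and in 37.4% of all windows. No motif searched was shared by Klf2 and Klf6 except GGGCGG, which 35.7% of all windows and those of all 6 members with a RefSeq promoter entry held.

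Of 9 genes that act upstream of Klf2 (MAP kinases of the ERK5 route, MEF2 and FOXO factors), Mef2c and Mef2a were called in some comparisons. With 9.6% of all genes called, Mef2c was lower in CD115+Ly6C+ than in CD115+Ly6C-, at 166.5 against 314.9 CPM (edgeR adjusted p = 0.00304), a log2 fold change of -0.92 (SE 0.12), and 0 were higher. Mef2c at 412.5 and Mef2a at 92.9 CPM in CD115-Ly6C- exceeded the 166.5 and 65.1 CPM of CD115+Ly6C+ (1.01e-04 and 0.0106), the 2 genes called there. Mef2a was also the 1 gene called between CD115-Ly6C- and CD115+Ly6C- (0.0461, against 69.1 CPM). The counts of 2 and 1 stand beside 39.3% and 15.2% of all genes called. Mef2d was called in none (edgeR adjusted p = 0.568, 0.189 and 0.402). Ubiquitin ligases that act on Klf2, Klf10 and relatives (Wwp1, Smurf1, Smurf2, Fbxw7 and Itch) gave 0 calls of 5 in every comparison by edgeR. The shares of all genes called were those given above for each comparison.

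Genes that Klf2 is known to control in lymphocytes did not move in 1 direction. Of 7, 3 were higher and 0 lower for CD115-Ly6C- against CD115+Ly6C-, beside 8.43% and 6.78% of all genes. Against CD115+Ly6C+, 4 were higher and 1 lower, beside 20.1% and 19.2%. For CD115+Ly6C+ against CD115+Ly6C-, 1 was higher and 2 lower, beside 5.26% and 4.34%. S1pr1, the receptor through which lymphocytes leave tissues, stood at 4.13 and 6.42 CPM in CD115-Ly6C- and at or below 0.424 CPM in the other 4 libraries (edgeR adjusted p = 0.00694 and 0.00292). Ccr7, a lymph node homing receptor, had means of 70.8 CPM for CD115-Ly6C-, 41.6 for CD115+Ly6C- and 18.3 for CD115+Ly6C+, and in that order Il7r, a cytokine receptor chain of lymphoid progenitors, at 74.7, 13.9 and 1.83 CPM. Itgb7, an integrin chain, ran the other way, at 237.5, 285.6 and 535.7 CPM. Klf2 itself overlapped between all 3 subsets. Some lymphoid genes of the marker lists were higher in CD115-Ly6C- too. Against CD115+Ly6C-, 3 of 4 tested T cell, 2 of 6 B cell and 1 of 4 natural killer cell genes were higher. In each list 0 were lower, beside 8.43% of all genes higher and 6.78% lower. Cd79b, most of the B cell sum, was at 76.6 and 82 CPM, below the 90.1 and 84.6 CPM of CD115+Ly6C-. Over CD115+Ly6C-, Lck was 5.08-fold, the early B cell factor Ebf1 30.8-fold and Cd79a 14.2-fold higher (edgeR adjusted p = 1.51e-04, 0.00654 and 0.0063), with Ebf1 at 7.53 against 0.239 CPM. Their part in the levels of S1pr1, Il7r and Ccr7 was not tested.

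Among the other members of the family, 6 were tested and 1 was called, in CD115-Ly6C- against CD115+Ly6C+, where 39.3% of all genes were called. This was Klf8, a repressor that also binds CtBP. It stood at 5.84 and 5.03 CPM against 8.08 and 11.9 CPM, a log2 fold change of -0.88 (SE 0.29, edgeR adjusted p = 0.0405). Klf1, the erythroid member, had 1 to 15 counts per library. Of the related Sp factors, which bind the same GC boxes, 4 were tested, namely Sp1, Sp2, Sp3 and Sp4. Sp6, Sp7, Sp8 and Sp9 stayed at or below 0.352 CPM and were not tested. Sp4 was the 1 that was called, in the same comparison, again beside 39.3% of all genes. It stood at 28.7 and 36.2 CPM in CD115-Ly6C- against 19.5 and 20.5 CPM in CD115+Ly6C+. The log2 fold change was 0.70 (SE 0.17, edgeR adjusted p = 0.0125).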

How the data were processed

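Per the submitters' processing notes, reads were aligned and quantified with Bowtie2 and RSEM on mm10, the same assembly as GRCm38; their version numbers and options are not given in the sources here. The deposited tables, per the file headers, hold RSEM expected counts (estimated, so 12.6% of those above 0 are not whole, tolerance 1e-06) and FPKM from the authors for each gene with reads; an unlisted gene was taken as 0. Expected counts were rounded and fitted with edgeR 4.0.16 in R 4.3.3 (quasi-likelihood test, TMM, filterByExpr with minimum count 10 and minimum total 15), all 6 libraries in 1 model with 1 coefficient per subset. SE is the log2 fold change over the square root of F, and intervals use 3 residual and 5.65 prior degrees of freedom. The test was also run on data simulated from this fit, with libraries independent of each other. That run does not cover an effect shared by replicates, so it says nothing about such an effect in these data. FPKM were used only for levels between genes and with limma 3.58.1 as an alternative. DESeq2 1.42.0 was a further alternative. The genes named were the members, the other Klf and Sp genes with reads, up to 4 genes with the smallest adjusted p per pathway list and comparison, and the 3 most alike genes of each member called. Cell type markers, Mef2d and the heat shock genes were named outside this rule, after their values were seen. Members and lists were chosen with earlier results of these data known. Of 7 members, 6 matched a RefSeq promoter entry. Protein sequences were not used here. No label mentions molecular identifiers.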

Additional observations from a re-analysis of the deposited data

How the results depend on the processing

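Of 15 alternatives, all fixed with the tests, those that changed the number of members called are given here. In CD115+Ly6C+ against CD115+Ly6C-, the count of higher members went from 0 to 1 with no filter, with only the 2 subsets compared and with DESeq2, and that of lower members from 0 to 1 with no filter and with DESeq2. In CD115-Ly6C- against CD115+Ly6C-, the count of lower members went from 0 to 1 with no filter. In CD115-Ly6C- against CD115+Ly6C+, that of higher members went from 1 to 0 with the replicate block and with only the 2 subsets compared. Leaving out each library gave 0 to 1 higher in each comparison, 0 to 1 lower in CD115-Ly6C- against CD115+Ly6C-, 1 lower throughout in CD115-Ly6C- against CD115+Ly6C+ and 0 in the third.

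Signs turned only for differences that were not called, and the cause was not tested. For Klf10 in CD115+Ly6C+ against CD115+Ly6C- the value was -0.06 with library totals, -0.01 with the replicate block and -0.08 with limma on log2(FPKM + 0.5) or log2(FPKM + 0.1). In CD115-Ly6C- against CD115+Ly6C-, Klf6 was at -0.05 with the replicate block and with the length trend removed, and Klf10 at -0.03 with the latter. In CD115-Ly6C- against CD115+Ly6C+, library totals gave 0.09 for Klf6 and 0.15 for Klf7. The length trend removed gave 0.20 for Klf7, -0.09 for Klf10 and -0.13 for Klf13. Limma with 0.5 gave 0.00 for Klf6 and 0.12 for Klf7, and with 0.1 it gave 0.13 for Klf7. Klf10 was at -0.01 with DESeq2 size factors, with only the 2 subsets and with DESeq2. Leaving out each library gave, in the order of the report's comparisons, -0.16 to 1.45, -0.13 to 1.52 and -0.57 to 0.56 for Klf2, -0.26 to 0.48, -0.74 to 0.55 and -0.88 to 0.42 for Klf6, and -0.28 to 0.25, -0.06 to 0.09 and -0.24 to 0.29 for Klf10. For Klf7 and Klf13 it gave -0.21 to 0.10 and -0.03 to 0.41 in the last.

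Library totals in place of TMM moved the median of all genes to -0.08, 0.14 and 0.22 and the share of calls that were higher from 54.8%, 55.4% and 51.1% to 38.4%, 74.3% and 69.8%. Limma on log2(FPKM + 0.5) gave medians of -0.06, 0.12 and 0.19 and shares of 49.6%, 72.2% and 67.2%. The replicate numbers were not taken to pair the samples, since deviations from the subset means correlated at -0.004, -0.01 and 0.152 across genes and not all were above 0.1. Whether they share a mouse or a sort is not labelled. With the replicate block, Klf3 in CD115-Ly6C- against CD115+Ly6C+ was at 1.36 (edgeR adjusted p = 0.0606) and calls over all genes went from 4768 to 4550. Over CD115+Ly6C-, Klf2 was then at 0.56 in CD115+Ly6C+ and 0.59 in CD115-Ly6C- (edgeR adjusted p = 0.186 and 0.143). Replicate 2 minus replicate 1 came to 1.17 for Klf2 (SE 0.20, edgeR adjusted p = 0.165). For Klf6 it was 0.88 (SE 0.14, edgeR adjusted p = 0.13). For the same term, edgeR called 5 of the 25 immediate early genes higher in replicate 2 and 0 lower, with a median of 0.77. The share of all genes called for this term is not given here. Calls over all genes in CD115+Ly6C+ against CD115+Ly6C- went from 1164 to 1810 with no filter and 711 with the length trend removed. Leaving out each library gave 220 to 1139 there, 485 to 1744 in CD115-Ly6C- against CD115+Ly6C- (1844 with all) and 2983 to 4632 in the last comparison. Depth limits Klf3 and Klf7 most, with 32 to 224 and 32 to 64 counts per library.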

Other observations

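The gene models behind the deposited values differed in length from GENCODE M21 for 2 members. The deposited tables gave Klf7 a length of 1344 bases and Klf3 one of 2314 bases, where the GENCODE transcripts that carry the same RefSeq names have 7662 and 5221 bases. For Klf2, Klf4, Klf6, Klf10 and Klf13 the tables gave 2045, 3118.3, 4217, 3055.7 and 6396 bases, beside 1847, 3029, 4225, 3044 and 6396 in GENCODE. What the longer 3' UTRs would add to the counts of Klf3 and Klf7 was not tested.

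AUUUA, a core of AU-rich elements that mark short-lived transcripts, occurred 1 time in the 3' UTR of Klf2, 1 in that of Klf4, 7 in that of Klf6 and 4 in that of Klf10. Per kilobase this was 1.35, 1.02, 2.25 and 2.68, beside a median of 1.49 over 17976 genes with a 3' UTR of at least 200 bases. Klf7 had 18 sites (2.87 per kilobase), Klf3 had 7 (1.87) and Klf13 had 3 (0.58). The members that ran with the immediate early genes, Klf2 and Klf6, thus lay on either side of that median.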
